A study of Mus musculus with 12 samples.

Results

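The 37 genes described here sense DNA damage or repair it, and they were taken by gene symbol from the 55376 symbols of a table of raw RNA-Seq counts. All 37 passed the filter on low counts, as did 17716 symbols in all. They were 5 genes of damage kinases and checkpoint kinases, 6 that mark or sense breaks, 6 of homologous recombination, 3 of the Fanconi anemia pathway, 4 of non-homologous end joining, 8 of single-strand break and base excision repair, 4 of nucleotide excision repair and 1 of mismatch repair.

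The RNA came from O1+ CD45- oligodendrocytes, sorted by FACS from C57BL/6 mouse brain at postnatal day 40. There were 4 samples of each of 3 genotypes, and each sample held the cells of 2 brains. The genotypes were wild-type (WT), Cnp-Cre:Jab1flfl (Jab1-mutant) and p21-/- Cnp-Cre:Jab1flfl (double-mutant). Jab1 (symbol Cops5) encodes the catalytic subunit of the COP9 signalosome, and p21 (symbol Cdkn1a) encodes an inhibitor of cyclin-dependent kinases that halts the cell cycle after DNA damage. The Cnp promoter drives Cre in late oligodendrocyte precursors and in oligodendrocytes, and also in Schwann cells, so Jab1 loss was conditional, whereas the p21 allele was missing from every cell of the double-mutant mice. With no group that lacked p21 alone, the effect of p21 loss could be read only on the Jab1-mutant background.

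A break in both DNA strands activates the kinases ATM and DNA-PK, while stretches of single-stranded DNA activate ATR. These kinases phosphorylate histone H2AX around the lesion and pass the signal to the checkpoint kinases CHK1 and CHK2. In cells that no longer divide, such as mature oligodendrocytes, breaks are joined mainly by non-homologous end joining, since homologous recombination needs a sister chromatid, and oxidized bases and nicks are mended by excision repair and sealed by a DNA ligase. Most of this signalling works by phosphorylation and recruitment of proteins, which RNA-Seq does not measure.

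Total counts were 61485556 to 153495112 per sample. Cops5 mRNA was 46.5 to 134 CPM (counts scaled by library size) in WT, 45.1 to 89.3 CPM in Jab1-mutant and 44.4 to 90.7 CPM in double-mutant samples, and the groups overlapped. Cdkn1a was 16.0 to 85.6 CPM in WT, 380 to 639 CPM in Jab1-mutant and 64.9 to 104 CPM in double-mutant samples. Counts per gene do not separate a deleted exon from the exons that remain, so neither gene checks the labels. Markers of some other cells moved with genotype. The summed level of 20 microglial markers was 148 to 362 CPM in WT, 1355 to 3412 CPM in Jab1-mutant and 522 to 22893 CPM in double-mutant samples, and the highest sum was that of double-mutant replicate 3, which stood apart. In Jab1-mutant against WT, 18 of 20 microglial, 5 of 10 endothelial and 5 of 9 mural cell markers were called higher, and 7 of 12 markers of mature oligodendrocytes were called lower. There were 0 calls among 12 markers of astrocytes, 11 of neurons, 10 of oligodendrocyte precursors and 2 of T cells. Of 5 markers of border macrophages, 1 was called higher. Over all genes, 5.19% were called higher and 2.46% lower in this comparison. In double-mutant against WT, 0 markers of these lists were called, against 0.175% of all genes called higher and 0.0169% called lower. The microglial sums of all double-mutant samples still lay above those of WT. Endothelial sums were 333 to 727 CPM in WT and 689 to 4908 CPM in double-mutant samples, with overlap. No microglial, endothelial, mural or oligodendrocyte marker was at 0 in all samples of any genotype. The part of these cells in the results below was not tested. In bulk samples such as these, fewer cells of a type and less RNA per cell cannot be told apart.

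Sequence upstream of the transcription starts was compared first, because factors of the E2F family, which drive genes of DNA synthesis, bind many promoters of repair genes. RefSeq windows of 250 bases before the start (GRCm38.p6) matched 29 of the 37 genes. There was no window for H2afx, Prkdc, Nbn, Rad50, Fancd2, Wrn, Polb and Xpc. The E2F words searched on both strands were TTTCCCGC, TTTCGCGC, TTTGCCGC and TTTGGCGC, and none of them contains the CCAAT word that was searched alongside. An E2F word lay in the windows of 4 of 29 genes (13.8%), against 2.16% of 26994 mouse genes with a window, and CCAAT lay in those of 14 of 29 (48.3%), against 37.5%. The 4 genes were Brca2 (chr5:150522371-150522620, plus strand), Chek2 (chr5:110839733-110839982, plus strand), Mdc1 (chr17:35841248-35841497, plus strand) and Xrcc6 (chr15:82016119-82016368, plus strand). They are shown, for where the word lies, with the E2F word, or its reverse complement, in capitals. The window before the most upstream of the 3 RefSeq starts of Lig1 (chr7:13276925-13277174, plus strand) is shown with them because Lig1 was the 1 gene called between genotypes. This window held 50.8% G and C, against 64.8% and 63.6% in the other windows of Lig1, which are not shown.
Brca2: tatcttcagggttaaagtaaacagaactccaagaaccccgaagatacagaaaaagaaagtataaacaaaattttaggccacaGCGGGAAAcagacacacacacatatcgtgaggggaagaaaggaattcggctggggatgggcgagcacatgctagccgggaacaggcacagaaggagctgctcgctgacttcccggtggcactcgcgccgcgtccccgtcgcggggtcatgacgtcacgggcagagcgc
Chek2: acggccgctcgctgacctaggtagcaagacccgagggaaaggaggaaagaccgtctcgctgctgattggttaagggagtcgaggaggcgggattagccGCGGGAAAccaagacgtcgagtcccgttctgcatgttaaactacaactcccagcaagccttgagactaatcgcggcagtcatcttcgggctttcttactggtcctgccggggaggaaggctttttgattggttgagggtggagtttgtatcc
Mdc1: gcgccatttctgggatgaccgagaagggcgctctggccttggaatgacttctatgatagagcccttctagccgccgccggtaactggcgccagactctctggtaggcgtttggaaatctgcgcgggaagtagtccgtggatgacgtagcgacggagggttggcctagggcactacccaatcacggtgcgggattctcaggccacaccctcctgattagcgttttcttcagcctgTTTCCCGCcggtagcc
Xrcc6: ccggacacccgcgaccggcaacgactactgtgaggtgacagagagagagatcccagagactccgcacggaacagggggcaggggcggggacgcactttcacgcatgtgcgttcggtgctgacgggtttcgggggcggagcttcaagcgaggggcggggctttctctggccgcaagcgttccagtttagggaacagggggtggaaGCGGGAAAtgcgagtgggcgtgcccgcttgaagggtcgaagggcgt
Lig1: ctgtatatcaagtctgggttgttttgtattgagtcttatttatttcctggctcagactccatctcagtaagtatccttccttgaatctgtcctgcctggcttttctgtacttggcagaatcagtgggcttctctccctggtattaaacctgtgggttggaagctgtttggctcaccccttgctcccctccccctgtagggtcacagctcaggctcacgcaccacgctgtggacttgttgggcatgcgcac
In each of the 4 windows the match was TTTCCCGC or its reverse complement GCGGGAAA. No E2F word and no CCAAT lay in any of the 3 windows of Lig1, which says only that these letters are not in them. In Jab1-mutant against WT, mean levels of the 4 genes with a word went from 8.88 to 11.4 CPM for Brca2, from 5.76 to 6.14 CPM for Chek2, from 14.97 to 17.6 CPM for Mdc1 and from 74.8 to 43.2 CPM for Xrcc6, and none was called.

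In WT the summed markers were 46054 to 107350 CPM for mature oligodendrocytes, 6147 to 15770.5 CPM for astrocytes and 857 to 1900 CPM for oligodendrocyte precursors. The part of each cell type in the levels of the repair genes was not tested. In these WT samples the genes highest per length were of excision repair and end joining, though other genes of these pathways were low. Polb, the polymerase that fills gaps in base excision repair, had 60.8 ± 22.2 CPM per kb of exon (mean ± SD, n = 4, the scale of all levels in this comparison among genes). Xpa, a damage verification factor of nucleotide excision repair, had 29.9 ± 9.06 CPM per kb, and Ercc1, a subunit of its nuclease, had 28.2 ± 4.52. These neighbours in the order differed by less than their SDs, as did Xrcc1, the scaffold of single-strand break repair, at 27.2 ± 6.40. Xrcc6, which encodes the Ku70 subunit that binds broken ends, had 22.5 ± 7.41 CPM per kb. The large kinase genes were lower, with 3.32 ± 1.46 for Prkdc, the catalytic subunit of DNA-PK, 2.69 ± 1.16 for Atr and 2.40 ± 0.510 for Atm, no pair of which differed by more than the larger of its SDs. The lowest were Fancd2 at 0.249 ± 0.164, Fanci at 0.288 ± 0.207 and Brca1 at 0.413 ± 0.342 CPM per kb, all genes of pathways that act mostly in dividing cells. The order did not follow pathway throughout. Lig4 of end joining had 1.44 ± 0.855 CPM per kb and Ercc2 of nucleotide excision repair had 0.853 ± 0.588. Rad52 of homologous recombination, by contrast, had 10.6 ± 0.819, above Xrcc5 of end joining at 9.92 ± 2.40.

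Low genes varied most. In WT the coefficient of variation over the 4 samples had a median of 36.6% for the 37 genes, and of 65.6% for the 9 genes with a mean below 5 CPM. It was 47.2% in Jab1-mutant and 48.6% in double-mutant samples. Brca1 and Palb2, its partner in homologous recombination, had 0 counts in double-mutant replicate 3, which allows a level of up to 0.0293 CPM there (3 counts, for counting error only), although the gene reached 9.96 CPM and 3.97 CPM in other double-mutant samples.

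**Figure D1:**
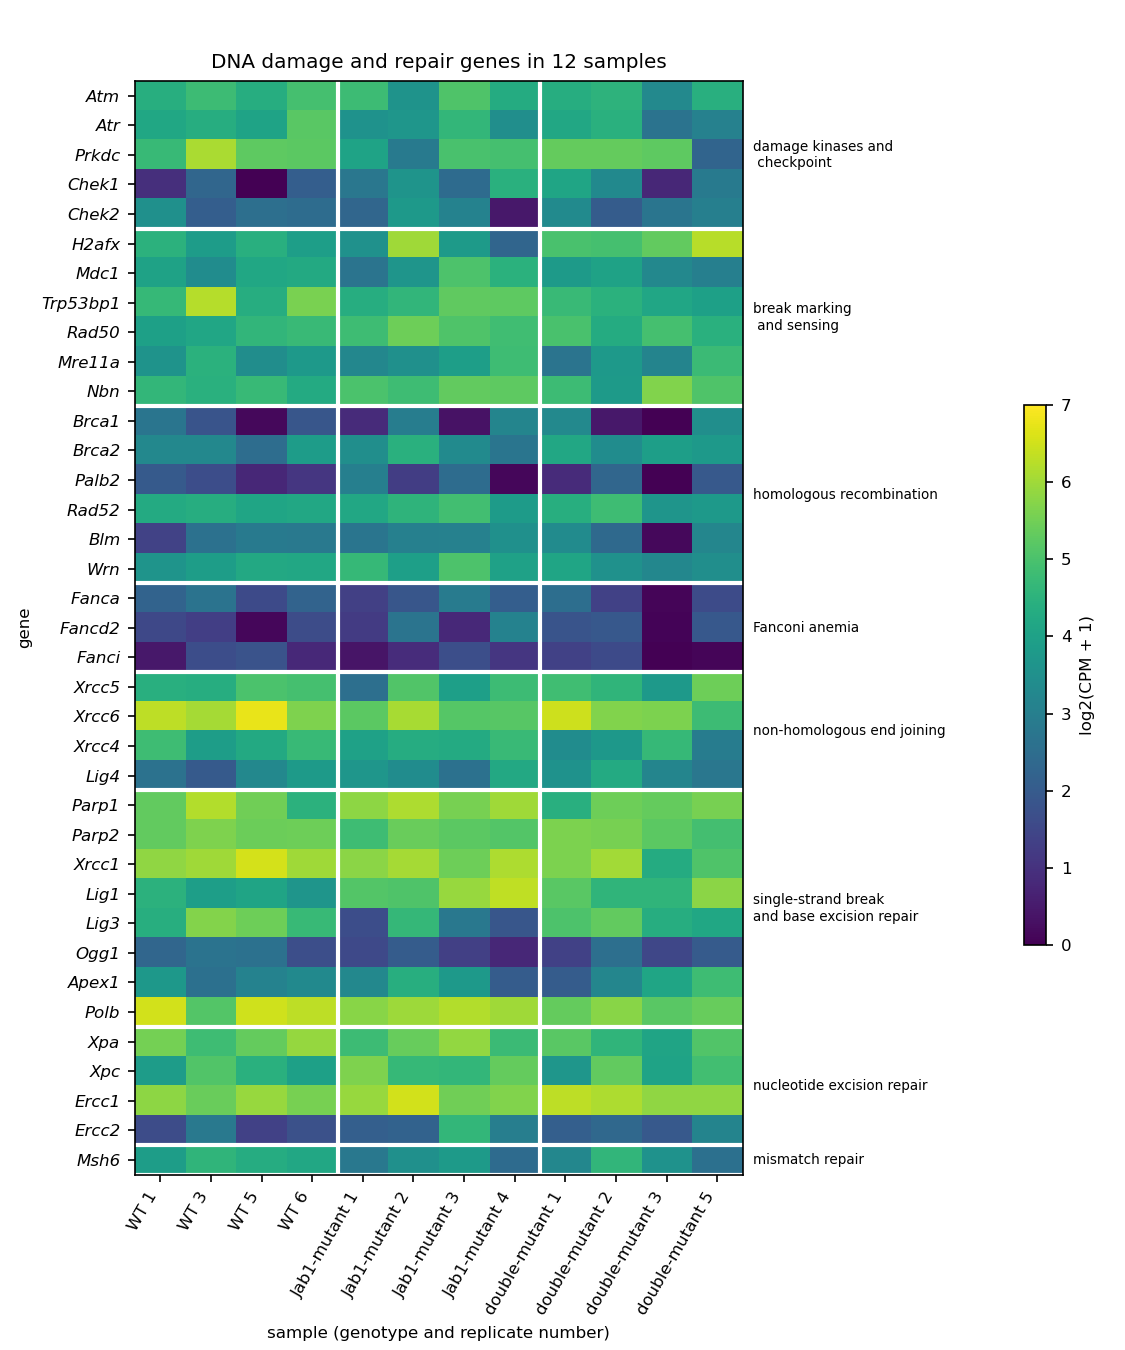
Level of each of the 37 genes in each of the 12 samples, as log2(CPM + 1) on the color scale, with genes in rows by pathway and samples in columns by genotype. Polb, Xrcc1 and Xrcc6 are bright in most samples, genes of the Fanconi anemia pathway are dark, and several homologous recombination and Fanconi genes are darkest in double-mutant replicate 3.

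The comparison of Jab1-mutant with WT asked whether loss of Jab1 altered the expression of the damage response. Of the 37 genes, 1 was called higher and 0 lower at an adjusted p below 0.05 by edgeR's quasi-likelihood test. This was 2.7% of the genes, and over all genes tested 5.19% were called higher and 2.46% lower. At an unadjusted p below 0.05 there was 1 higher gene and 3 lower ones, against 13.2% and 9.3% of all genes. The 4 samples of each genotype did not overlap for 4 higher genes (10.8%) and 1 lower gene (2.7%), against 9.9% and 7.24% of all genes. Fold changes lay above 0 for 21 genes and below 0 for 16, with a median of 0.18 on the log2 scale against 0.02 over all genes. Without Jab1-mutant replicate 2 the median was -0.0011 and 18 genes lay above 0, and with limma-voom it was -0.07 with 17 above 0. The shares called were near or under those of all genes.

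The gene called was Lig1, the ligase that joins Okazaki fragments in replication and seals the longer patches of excision repair. Lig1 (ENSMUSG00000056394.17, GRCm38 chr7:13277283-13311433, plus strand) had 21.8, 14.1, 16.0 and 11.5 CPM in the WT samples. In the Jab1-mutant samples it had 34.2, 32.9, 59.1 and 79.9 CPM. Each Jab1-mutant sample lay above every WT sample. The means were 15.8 ± 4.34 and 51.5 ± 22.4 CPM (SD, n = 4), and the log2 fold change was 1.70 ± 0.38 (SE, 95% CI 0.87 to 2.53, adjusted p = 0.0219). The call was kept in 3 of 8 fits that left out 1 sample and in 9 of 10 other alternatives, with adjusted p of 0.000715 to 0.178. It was lost without WT replicate 3, 5 or 6, or without Jab1-mutant replicate 3 or 4, at adjusted p of 0.0565 to 0.0681. Of the 3517 exon bases of Lig1, 217 are shared with Zswim9 on the other strand, which had 5.72 ± 4.62 CPM in WT and 5.69 ± 2.91 CPM in Jab1-mutant samples.

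Lig1 was highest in Jab1-mutant replicates 3 and 4. In those samples the summed markers of mature oligodendrocytes were the lowest of the genotype, at 9114 and 18808 CPM, and the 30 proliferation markers summed to 445 and 375 CPM, against 458 and 1172 CPM in replicates 1 and 2. Of the 30 proliferation markers, 1 was called higher and 0 lower in Jab1-mutant against WT, against 5.19% and 2.46% of all genes. The marker called was Mki67, named here after its value was seen, with 7.05 ± 4.96 CPM in WT and 34.8 ± 12.3 CPM in Jab1-mutant samples (log2 fold change 2.30, adjusted p = 0.0253). The sums of the 30 markers were 229 to 522 CPM in WT and 375 to 1172 CPM in Jab1-mutant samples. The summed endothelial markers were 333 to 727 CPM in WT and 5227, 753, 2676 and 4145 CPM in Jab1-mutant replicates 1 to 4. In the same Jab1-mutant samples the summed microglial markers were 3330, 1355, 2301 and 3412 CPM. The summed mural cell markers were 1179, 999, 1056 and 1765 CPM there, and 282 to 497 CPM in WT. The part of any of these cells in the level of Lig1 was not tested.

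Lig3 encodes the ligase that works with XRCC1 in single-strand break repair and that also maintains mitochondrial DNA. It had 19.8, 51.1, 42.6 and 25.5 CPM in WT and 2.13, 24.3, 6.04 and 2.68 CPM in Jab1-mutant samples. Jab1-mutant replicate 2 lay within the WT range, while the other 3 samples lay below all WT samples. The log2 fold change was -1.98 ± 0.73 (SE, 95% CI -3.58 to -0.39), which was not called by edgeR (adjusted p = 0.13). DESeq2 and limma-voom called it, at adjusted p of 0.0227 to 0.0373, while DESeq2 called 15.2% of all genes on the 8 samples and 13.1% on 12, and limma-voom called 10.8%. Without Jab1-mutant replicate 2 edgeR called it at -3.28 (adjusted p = 0.00609). Over all alternatives its adjusted p was 0.00609 to 0.268. Of the 6550 exon bases of Lig3, 1826 are shared with Rffl on the other strand, a gene that had 82.3 ± 41.8 CPM in WT and 34.9 ± 15.9 CPM in Jab1-mutant samples (log2 fold change -1.24, adjusted p = 0.144). Without the strand, reads of such pairs cannot be told apart, and 19 of the 37 genes share exon bases with a gene on the other strand. The window before the start of Lig3 had no E2F word either. Lig4, the ligase of non-homologous end joining, had 2.97 to 13.2 CPM in WT and 5.14 to 17.7 CPM in Jab1-mutant samples (log2 fold change 0.56, adjusted p = 0.645).

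**Figure D2:**
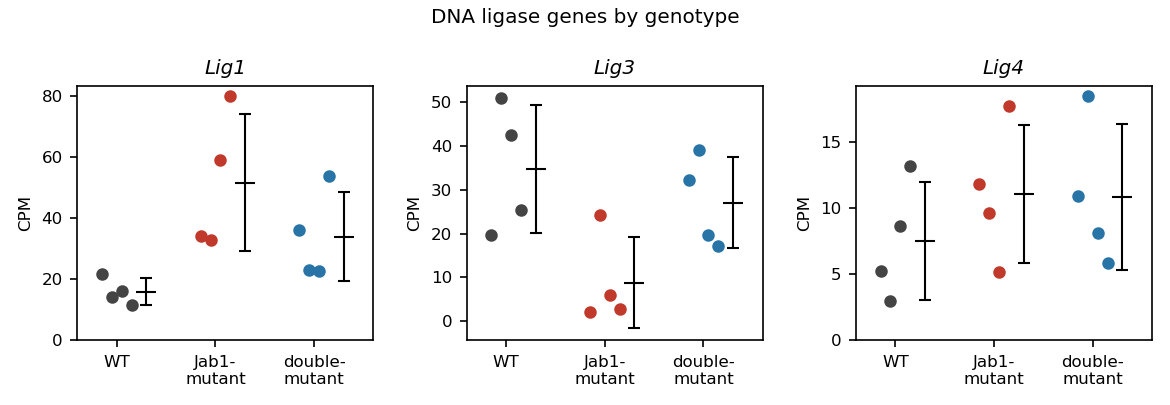
CPM of the 3 DNA ligase genes in each sample by genotype (points in the order of replicate number), with the mean and SD at the right of each group (n = 4). All Jab1-mutant points of Lig1 lie above the WT points, 3 of 4 Jab1-mutant points of Lig3 lie at or below 6.04 CPM, and the groups overlap for Lig4.

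Among the damage and checkpoint kinases, Prkdc had 25.3, 68.4, 37.4 and 36.8 CPM in WT and 15.7, 6.41, 30.6 and 29.4 CPM in Jab1-mutant samples. The lowest 2 Jab1-mutant values lay under the WT range and the other 2 within it. The log2 fold change was -1.03 ± 0.49 (SE, 95% CI -2.11 to 0.05, adjusted p = 0.245). Atm, the kinase of double-strand breaks, and Atr, the kinase of stalled forks, had log2 fold changes of -0.10 (adjusted p = 0.922) and -0.64 (adjusted p = 0.436). Chek1, the effector of ATR, had 0.936, 3.95, 0.00992 and 3.28 CPM in WT and 5.81, 11.3, 4.47 and 20.6 CPM in Jab1-mutant samples. Although these samples did not overlap, 1 WT value rested on 1 count, and the log2 fold change of 2.37 had a CI of -0.15 to 4.89 (adjusted p = 0.252). Chek2, the effector of ATM, had 3.27 to 10.3 CPM in WT and 0.378 to 12.7 CPM in Jab1-mutant samples (log2 fold change 0.09, adjusted p = 0.965).

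H2afx encodes the histone variant whose phosphorylated form marks breaks. It had 21.7, 13.6, 20.2 and 14.1 CPM in WT and 10.7, 62.9, 13.1 and 3.87 CPM in Jab1-mutant samples. Apart from replicate 2, the Jab1-mutant values lay below the lowest WT value. The log2 fold change was 0.38 ± 0.69 (SE, adjusted p = 0.804), and it was -0.93 without replicate 2. Among Jab1-mutant samples, replicate 2 had the highest summed markers of proliferation (1172 CPM), mature oligodendrocytes (35752 CPM) and neurons (827 CPM). It had the lowest sums of microglial (1355 CPM) and endothelial markers (753 CPM). The part of these cells in the level of H2afx was not tested. Trp53bp1, whose product 53BP1 protects ends from resection, had 19.6 to 73.9 CPM in WT and 19.7 to 38.4 CPM in Jab1-mutant samples (log2 fold change -0.48, adjusted p = 0.573). Of its 9621 exon bases, 2130 are shared with Tubgcp4 on the other strand. The MRN complex binds broken ends and activates ATM. Rad50, its tether, had 14.6, 16.5, 23.5 and 25.6 CPM in WT and 27.1, 42.8, 32.7 and 28.1 CPM in Jab1-mutant samples. Nbn, its link to ATM, had 24.0, 20.9, 25.1 and 18.3 CPM in WT and 31.6, 27.4, 38.5 and 37.1 CPM in Jab1-mutant samples. For both genes all Jab1-mutant samples lay above WT, by 0.70 ± 0.33 for Rad50 and 0.61 ± 0.29 for Nbn on the log2 scale, but neither was called (adjusted p = 0.232 and 0.242). The nuclease of the complex, Mre11a, had overlapping groups with means of 13.7 and 15.2 CPM, and so had Mdc1, the reader of phosphorylated H2AX.

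**Figure D3:**
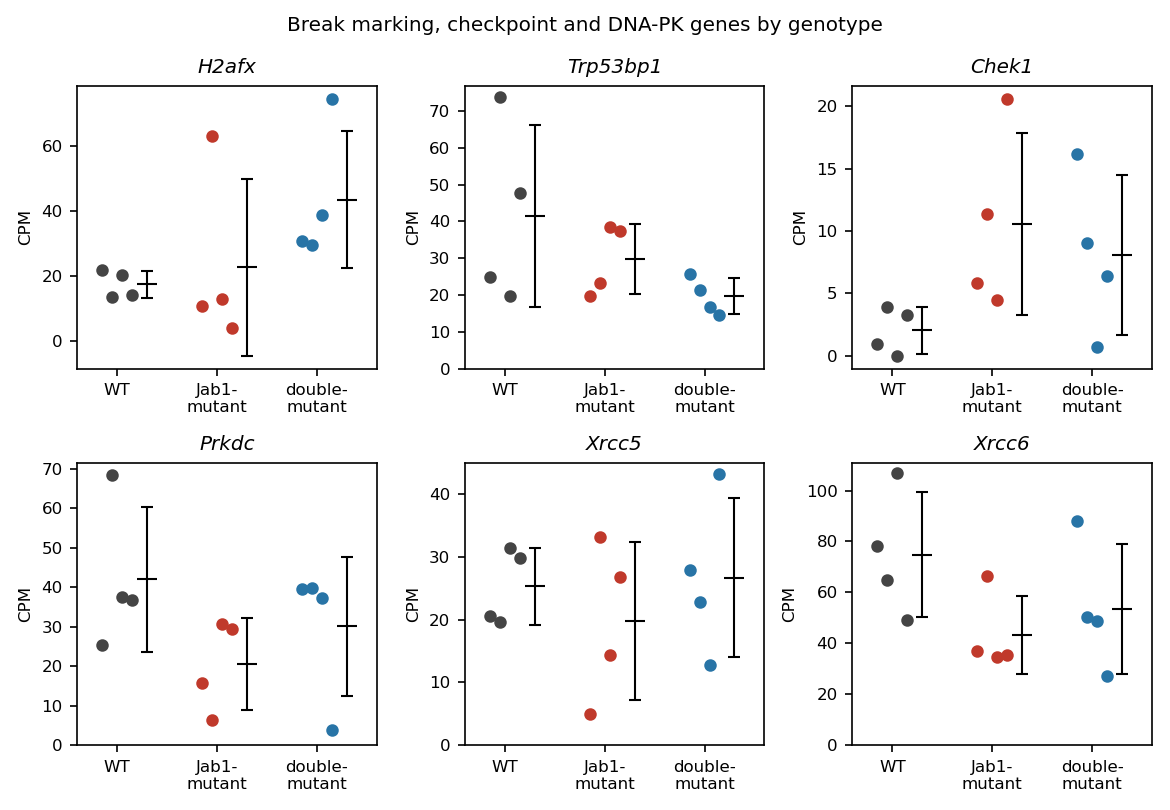
CPM of H2afx, Trp53bp1, Chek1 and the 3 genes of DNA-PK in each sample by genotype (points in the order of replicate number), with the mean and SD at the right of each group (n = 4). For H2afx all double-mutant points lie above WT and 1 Jab1-mutant point, at 62.9 CPM, stands far above the others. For Prkdc 1 double-mutant point lies at 3.79 CPM.

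In non-homologous end joining, Xrcc6 had 78.1, 65.0, 107 and 48.9 CPM in WT and 36.9, 66.3, 34.5 and 35.3 CPM in Jab1-mutant samples. Its log2 fold change was -0.79 ± 0.34 (SE, 95% CI -1.53 to -0.05) and was not called (adjusted p = 0.194), and replicate 2 was again the Jab1-mutant sample nearest to WT. Xrcc5, which encodes Ku80, the partner of Ku70, had a log2 fold change of -0.35 (adjusted p = 0.749), and Xrcc4, the cofactor of LIG4, one of -0.11 (adjusted p = 0.901). The 4 genes of the pathway had 1 fold change above 0 and 3 below 0, and 0 were called.

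Msh6, the mismatch repair gene that recognizes mispaired bases, had 14.0, 23.0, 19.3 and 17.3 CPM in WT and 5.93, 10.4, 13.1 and 4.44 CPM in Jab1-mutant samples. All Jab1-mutant samples lay below WT, by -1.12 ± 0.46 on the log2 scale, without a call (adjusted p = 0.173). All 6 genes of homologous recombination had fold changes above 0, from 0.18 to 0.91 on the log2 scale, with 0 called. Upper-quartile and RLE scaling left all 6 above 0, whereas limma-voom, and edgeR without Jab1-mutant replicate 2, left 5. Of these, Brca1, which starts recombination at resected ends, had 0.109 to 5.60 CPM in WT and 0.266 to 8.12 CPM in Jab1-mutant samples (log2 fold change 0.56, adjusted p = 0.838). The helicase genes Blm and Wrn and the strand annealing gene Rad52 had means of 4.76, 15.2 and 17.9 CPM in WT and of 7.69, 21.6 and 20.3 CPM in Jab1-mutant samples. Fanca, Fancd2 and Fanci, which act on crosslinks, stayed under 8 CPM in every sample and were not called.

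In base excision and single-strand break repair, Parp1, the sensor of nicks, had 21.4 to 72.8 CPM in WT and 46.1 to 68.8 CPM in Jab1-mutant samples (log2 fold change 0.40, adjusted p = 0.57). Parp2, Xrcc1, Polb, Apex1, the endonuclease of abasic sites, and Ogg1, which removes oxidized guanine, had overlapping groups and no call. The mean of Ogg1 was 4.15 ± 1.44 CPM in WT and 1.80 ± 1.003 CPM in Jab1-mutant samples. The nucleotide excision repair genes Xpa, Xpc, Ercc1 and Ercc2 were not called either. Ercc2, a helicase of TFIIH, was 1.58 to 6.17 CPM in WT and 3.31 to 24.1 CPM in Jab1-mutant samples, and Xpc, which recognizes distorted DNA, was 13.7 to 33.2 CPM in WT and 23.7 to 49.2 CPM in Jab1-mutant samples. The precision of the comparison was limited: the CI of a fold change extended by a median of 1.05 on the log2 scale to either side.

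**Figure D4:**
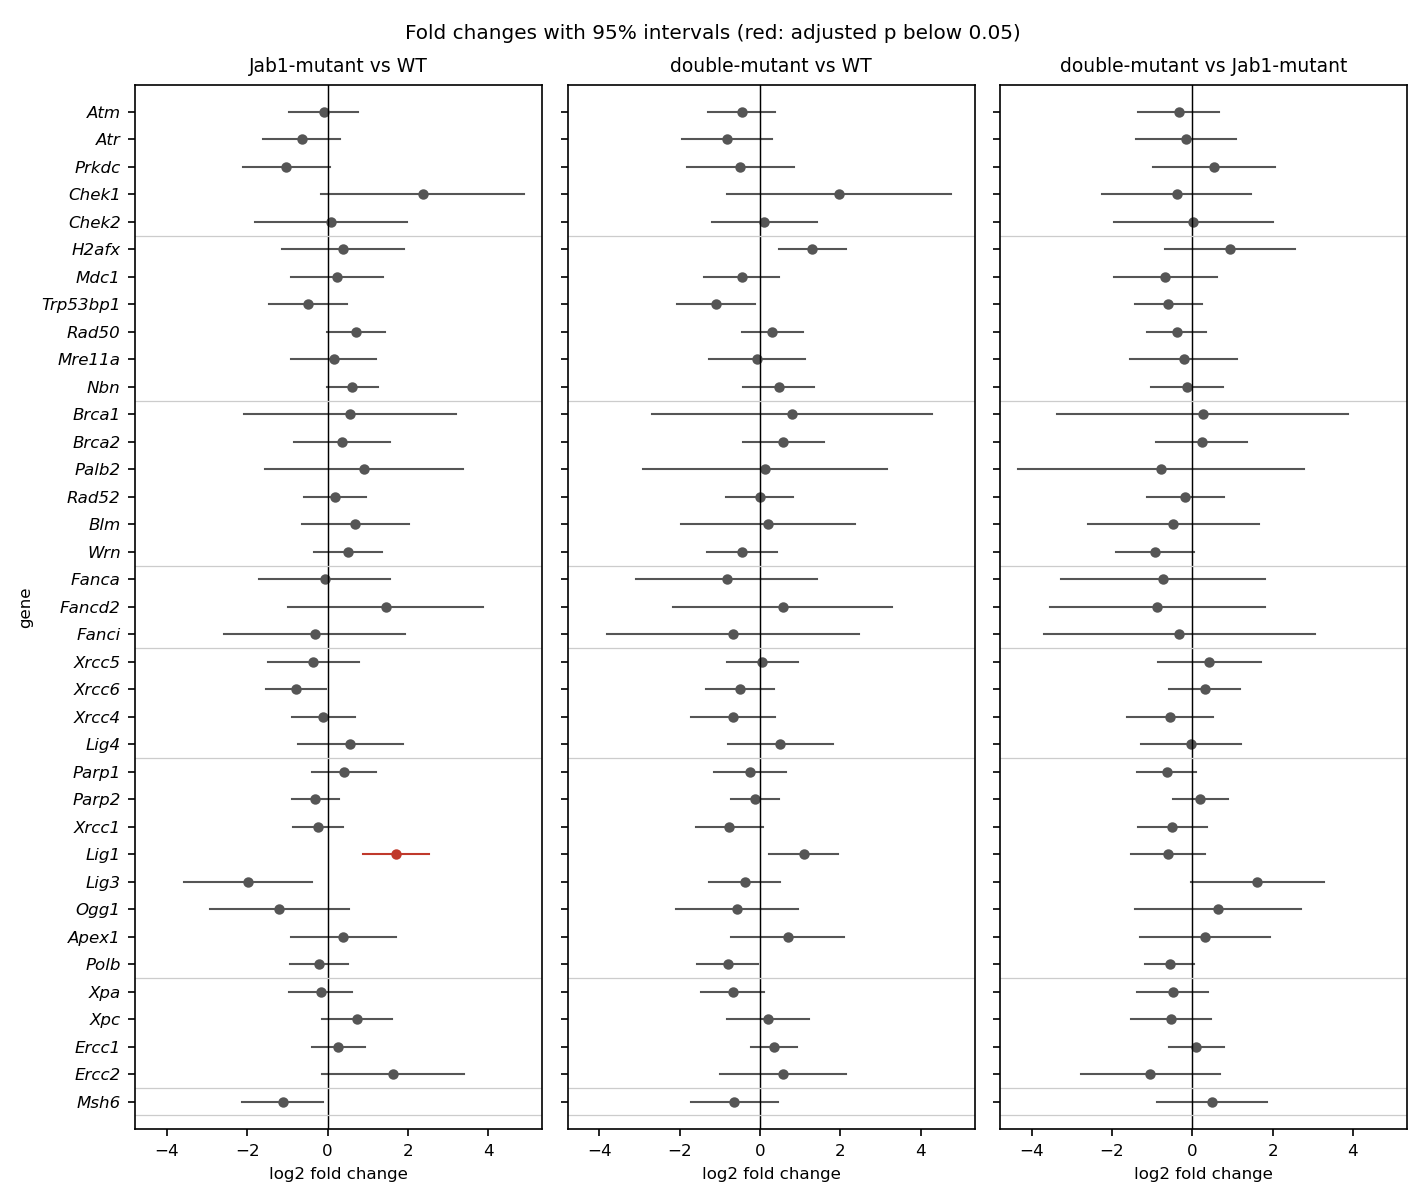
Log2 fold change (points) with its 95% CI (lines) of each of the 37 genes in the 3 comparisons, by edgeR with 4 samples per genotype. Lig1 in Jab1-mutant against WT is the 1 point in red (adjusted p below 0.05), most intervals cross 0, and the widest include those of Brca1, Palb2, Chek1 and Fanci.

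A further 99 genes of DNA damage and repair, of which 97 were tested, gave 0 calls by edgeR in Jab1-mutant against WT. At an unadjusted p below 0.05 there were 8 higher genes (8.25%) and 9 lower ones (9.28%), against 13.2% and 9.3% of all genes. The samples did not overlap for 7 higher and 6 lower genes (7.22% and 6.19%), against 9.9% and 7.24% of all genes. The smallest adjusted p belonged to Rbbp8, which encodes CtIP, the factor that starts resection of broken ends. Its level was 3.08 ± 1.75 CPM in WT and 13.4 ± 6.76 CPM in Jab1-mutant samples (log2 fold change 2.12, adjusted p = 0.0583), and both DESeq2 fits and limma-voom called it. DESeq2 on the 8 samples called 3 of the 97 genes, Rbbp8, Fan1 and Polk, against 15.2% of all genes. DESeq2 on 12 samples and limma-voom called 1 each, Rbbp8, against 13.1% and 10.8% of all genes. Ercc5, a nuclease of nucleotide excision repair, was 35.6 ± 5.98 CPM in WT and 59.8 ± 6.31 CPM in Jab1-mutant samples (adjusted p = 0.115). Lower values were seen for Fan1, a nuclease of crosslink repair, with 40.0 ± 14.8 and 16.2 ± 6.77 CPM (adjusted p = 0.0853). Paxx, a partner of Ku, had 126 ± 29.8 CPM in WT and 73.7 ± 11.2 CPM in Jab1-mutant samples (adjusted p = 0.122).

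The comparison of double-mutant with WT used the same 4 WT samples, so its values are set beside those above without a test of likeness. Of the 37 genes, 0 were called in either direction by edgeR, against 0.175% of all genes called higher and 0.0169% called lower. At an unadjusted p below 0.05 there were 2 higher genes, H2afx and Lig1, and 2 lower ones, Trp53bp1 and Polb (5.41% each), against 7.82% and 4.57% of all genes. The samples did not overlap for 2 higher genes and 0 lower ones, against 4.52% and 3.58% of all genes. DESeq2 on the 8 samples called H2afx, with 4.87% of all genes called. DESeq2 on 12 samples and limma-voom called 0 of the 37 genes, against 5.21% and 0.265% of all genes. The median log2 fold change was -0.07, with 17 genes above 0, and without double-mutant replicate 3 it was 0.12, with 19 above 0.

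H2afx had 30.8, 29.5, 38.8 and 74.4 CPM in the double-mutant samples, and each was above the highest WT sample, at 21.7 CPM. The log2 fold change was 1.31 ± 0.38 (SE, 95% CI 0.47 to 2.15) with an adjusted p of 0.2 by edgeR and of 0.0381 by DESeq2 on the same 8 samples, and the range over all alternatives was 0.0381 to 0.582. Replicate 5 had the highest level. Its proliferation marker sum was also the highest of the genotype, 1056 CPM against 343 to 475 CPM in the other 3 samples. So were its sums of endothelial (4908 CPM), mural (1721 CPM) and neuronal markers (841 CPM), while that of mature oligodendrocyte markers was the lowest (17081 CPM). The part of these cells in the level of H2afx was not tested. Of the 30 proliferation markers 0 were called in this comparison, against 0.175% of all genes called higher and 0.0169% called lower. H2afx (ENSMUSG00000049932.3, GRCm38 chr9:44334694-44336077, plus strand) shares 141 of its 1384 exon bases with Gm44335 on the other strand.

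Lig1 had 36.1, 22.8, 22.8 and 53.8 CPM in double-mutant samples, all above WT, whose highest value was 21.8 CPM. The log2 fold change was 1.09 ± 0.38 (SE, 95% CI 0.24 to 1.93, adjusted p = 0.279), and it was not called in any of 18 alternatives. Chek1 ranked next among the higher genes, with 16.2, 9.04, 0.723 and 6.37 CPM (log2 fold change 1.97, adjusted p = 0.565). The lowest of these values, in replicate 3, lay within the WT range. Of the lower genes, Trp53bp1 had 25.8, 21.4, 16.8 and 14.7 CPM against WT values of 25.0, 73.9, 19.6 and 47.6 CPM (log2 fold change -1.09, adjusted p = 0.334). Polb had 39.6, 53.3, 36.0 and 40.2 CPM against WT values of 90.7, 33.9, 89.3 and 78.0 CPM (log2 fold change -0.80, adjusted p = 0.369). In both cases the groups overlapped. Xrcc1 was 18.8 to 64.9 CPM, against 56.6 to 92.7 CPM in WT (log2 fold change -0.76, adjusted p = 0.453).

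Of the further 97 repair genes tested, 0 were called by edgeR in double-mutant against WT, and at an unadjusted p below 0.05 there were 0 higher and 3 lower genes (3.09%), against 7.82% and 4.57% of all genes. These 3, named after their values were seen, were Neil1, Rev3l and Fancc. The samples did not overlap for 0 higher and 3 lower genes, Neil1, Rev3l and Polm, against 4.52% and 3.58% of all genes. Neil1, a glycosylase for oxidized bases, was 32.6 ± 4.59 CPM in WT and 13.2 ± 2.34 CPM in double-mutant samples, without overlap (log2 fold change -1.32, adjusted p = 0.119). Rev3l, the catalytic subunit of polymerase zeta, was 56.6 ± 11.6 and 23.1 ± 8.55 CPM, also without overlap (adjusted p = 0.18). Both were called by DESeq2 on 8 and on 12 samples, and limma-voom called 0 of the 97 genes. The highest ranked of the other direction were Polk, a translesion polymerase, with 24.6 ± 8.11 and 45.6 ± 24.4 CPM (adjusted p = 0.423), and Timeless, a protein of the replication fork, with 8.90 ± 5.19 and 20.03 ± 11.5 CPM (adjusted p = 0.428).

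The comparison of double-mutant with Jab1-mutant asked what p21 loss changed on the mutant background. By edgeR 0 of the 37 genes were called, as were 0% of all genes higher and 0% lower. At an unadjusted p below 0.05 there were 0 of the 37 genes in either direction, against 1.75% of all genes higher and 3.25% lower, and the groups did not overlap for 0 genes, against 1.22% and 1.99% of all genes. DESeq2 on 8 samples, DESeq2 on 12 samples and limma-voom called 0 of the 37 genes too, against 0.491% (20 higher and 67 lower), 0.858% and 0.00564% of all genes. At an unadjusted p below 0.05 they had 1, 2 and 2 of the 37 genes. Of all 17716 genes, 486 were then higher and 725 lower by DESeq2 on 8 samples. These counts were 644 and 855 by DESeq2 on 12 samples, and 622 and 841 by limma-voom. DESeq2 on 8 samples gave no adjusted p for H2afx, so H2afx could not be called there. By edgeR the smallest adjusted p of the 37 genes was 0.968. The median log2 fold change was -0.32, with 24 genes below 0, but without double-mutant replicate 3 it was -0.02, with 19 below 0.

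The genes with the smallest p among those higher in double-mutant samples were Lig3, H2afx and Prkdc. Lig3 had 32.3, 39.1, 19.7 and 17.1 CPM, against 2.13, 24.3, 6.04 and 2.68 CPM in Jab1-mutant samples (log2 fold change 1.62 ± 0.75, SE, 95% CI -0.04 to 3.28, adjusted p = 0.968). Here again Jab1-mutant replicate 2 alone lay within the range of the other genotype. H2afx differed by 0.94 (adjusted p = 0.996) and Prkdc by 0.55 (adjusted p = 1.0) on the log2 scale. Prkdc had 39.5, 39.9, 37.2 and 3.79 CPM in double-mutant samples, of which 3 lay above all Jab1-mutant samples and 1 below them. Wrn, Polb and Parp1 were the lower genes with the smallest p. Wrn had 16.2, 10.6, 8.39 and 10.1 CPM, against 24.7, 14.6, 32.2 and 15.2 CPM in Jab1-mutant samples (log2 fold change -0.93, adjusted p = 0.968), and the groups overlapped through 1 double-mutant sample. Polb differed by -0.57 (adjusted p = 0.968) and Parp1 by -0.64 (adjusted p = 0.985). Lig1 differed by -0.61, with a 95% CI of -1.52 to 0.31 (adjusted p = 0.996).

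Of the further repair genes, 97 were tested, 0 were called by edgeR and 2 had an unadjusted p below 0.05, both lower in double-mutant samples (2.06%), against 1.75% of all genes higher and 3.25% lower. These were Ercc5, with 59.8 ± 6.31 CPM in Jab1-mutant and 23.8 ± 9.34 CPM in double-mutant samples (log2 fold change -1.33, adjusted p = 0.713), and Clspn, the adaptor between ATR and CHK1, with 14.4 ± 5.95 and 3.56 ± 2.45 CPM (log2 fold change -2.02, adjusted p = 0.902). The samples did not overlap for 0 higher and 5 lower genes (5.15%), against 1.22% and 1.99% of all genes. The 5, named after their values were seen, were Ercc5, Clspn, Etaa1, Neil1 and Nhej1. DESeq2 on 12 samples called Ercc5, with 0.858% of all genes called, while DESeq2 on 8 samples and limma-voom called 0 of the 97 genes, against 0.491% and 0.00564% of all genes. The comparisons share the Jab1-mutant samples: Ercc5 was above WT in every Jab1-mutant sample and below every Jab1-mutant sample in the double-mutant group, whose mean was also lower than the WT mean of 35.6 CPM. The highest ranked of the other direction were Gtf2h3, a subunit of TFIIH, with 19.4 ± 9.66 and 33.2 ± 10.7 CPM (adjusted p = 0.994), and Recql, a helicase, with 7.86 ± 5.36 and 14.7 ± 6.74 CPM (adjusted p = 0.996).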

How the data were processed

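Gene expression was measured by RNA-Seq in 12 samples, 4 per genotype, grouped and numbered as the labels give them. RNA was amplified with SMART-Seq v4. Per the submitters' processing notes and the study's methods, reads were trimmed with Trimmomatic 0.32, aligned with STAR 2.5.3a to GRCm38 and assigned to genes of the GENCODE basic annotation by featureCounts. The authors deposited raw counts per gene symbol, without normalization. Use of strand and of reads with several matches is not given in the sources used here.

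CPM were computed from the counts with TMM factors over the 12 samples, and CPM per kb with exon lengths of GENCODE M21 basic. Genes that reached 1 CPM in 4 or more of the 12 samples (17716 of 55376) were tested with edgeR 4.0.16 (quasi-likelihood, R 4.3.3) on the 8 samples compared, with Benjamini-Hochberg adjustment over all genes tested and a threshold of 0.05. A gene is called higher or lower where it passed that threshold. Confidence intervals are 95% intervals from the fit. Alternatives were DESeq2 1.42.0 on 8 and 12 samples, limma-voom (limma 3.58.1) with quality weights, 2 other normalizations, 2 other filters, all 12 samples in one fit, the replicate number as a block, a minimum fold change of 1 (absolute log2), and leaving out 1 sample at a time. A filter over the 8 samples compared was added after seeing the data. The genes described and the lists were chosen with earlier results of these data known. The text names genes called in any comparison, the 3 genes with the smallest p in each direction of each comparison, 13 genes given regardless of their values (Atm, Atr, Prkdc, Chek1, Chek2, H2afx, Trp53bp1, Xrcc5, Xrcc6, Xrcc4, Lig4, Brca1 and Parp1), the targeted genes, and the 2 genes with the smallest p per direction among the further 99; other members are named to account for all 37.

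Total counts were 61485556 to 153495112 per sample, so precision was set mainly by the spread between samples. Counting intervals and floors cover counting error only, since reads carry no molecular identifiers. Counts of same-genotype samples differed beyond sampling noise (lowest chi-square per degree of freedom 211), and p-values measure the spread between these pools of 2 brains. On simulated counts for Jab1-mutant against WT with 200 of 17716 genes changed by 3 on the log2 scale, the share of changed genes recovered was 64% for edgeR, 80% for DESeq2 and 50.5% for limma-voom, and the false share among calls was 5.88%, 25.6% and 1.94%. The counts were drawn once, with the spread that edgeR had fitted, so these shares cannot rank the tools. The 37 genes changed by -1.98 to 2.37 in this comparison, and recovery of changes smaller than 3 was not simulated.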

Additional observations from a re-analysis of the deposited data

Results flagged for a closer look

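A sample far from the 3 others of its genotype was looked for in 111 groups of 4 (37 genes in 3 genotypes), on log2(CPM + 1) with Dixon's ratio, and 6 groups passed its 95% limit. Chance flags about 1 in 20 groups, or 5.55 of 111. Atm in double-mutant replicate 3 was 8.8 CPM, against 19.7 to 21.9 CPM in the other double-mutant samples. Fancd2 in the same sample was 0.0489 CPM, against 2.53 to 2.82 CPM, and this was the sample with the highest microglial marker sum, 22893 CPM. Prkdc in double-mutant replicate 5 was 3.79 CPM, against 37.2 to 39.9 CPM. Xrcc6 in Jab1-mutant replicate 2 was 66.3 CPM, against 34.5 to 36.9 CPM. In WT, Blm in replicate 1 was 1.63 CPM, against 5.07 to 6.19 CPM, and Polb in replicate 3 was 33.9 CPM, against 78.0 to 90.7 CPM. The causes were not tested.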

How the results depend on the processing

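Of 31 pairs of a named gene and a comparison, 26 kept their direction under every alternative and 5 did not, with 16 changes of direction among 553 refits. In Jab1-mutant against WT, 1 of the 37 genes was called. DESeq2 on 8 samples, DESeq2 on 12 samples and limma-voom with quality weights called 2 (Lig1 and Lig3), against 15.2%, 13.1% and 10.8% of all genes, and fits without 1 sample called 0 to 2. In double-mutant against WT 0 of the 37 were called, and DESeq2 on 8 samples called 1 (H2afx), against 4.87% of all genes. In double-mutant against Jab1-mutant 0 were called under every alternative, though DESeq2 on 8 samples gave no adjusted p for H2afx. The mean of at least 10 CPM left low genes untested.

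Log2 fold changes in Jab1-mutant against WT that changed direction were those of Atm (0.011 with a mean of at least 10 CPM), Chek2 (-0.73 with limma-voom), H2afx (-0.46 with limma-voom), Brca1 (-0.51 with limma-voom) and Xrcc4. Without 1 sample they ranged from -0.34 to 0.12 for Atm, from -0.56 to 0.54 for Chek2, from -0.93 to 0.71 for H2afx, from -0.063 to 1.19 for Brca1 and from -0.29 to 0.039 for Xrcc4. Lig1 ranged from 1.39 to 1.90 and Lig3 from -3.28 to -1.66. The cause of these changes was not tested.

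Replicate numbers gave no sign of pairing: deviations of 8 same-numbered pairs correlated at -0.19 to 0.08, and those of 40 other pairs at -0.24 to 0.33. So few pairs cannot show that the numbers carry no pairing. With the replicate number as a block, 0 of the 37 genes were called in Jab1-mutant against WT, against 76 higher and 3 lower of all 17716 genes. The block gave 1.59 for Lig1 (adjusted p = 0.178), 0.14 for Atm and -1.60 for Brca1.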
